A study of Drosophila melanogaster with 8 samples.

Results

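The 32 genes described here run the cell division cycle and DNA replication of Drosophila melanogaster. They were taken by symbol from the authors' table of differential expression, which lists 11397 genes, and all 32 symbols were found there and in the table of transcript abundances, which lists 14094 genes. By role they form 3 classes: 13 cyclins and mitotic genes, 6 genes that control entry into S phase, and 13 replication genes. All 32 passed the minimum abundance for testing, so none was lost to that filter.

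Polyadenylated RNA was sequenced from whole ovaries in which genetic tools had enriched cells like germline stem cells (GSC-like), from females 4 to 5 days old, with about 35 ovaries in each sample. The study compared 4 control samples (genotype Control, without Stwl overexpression) with 4 samples in which Stonewall (Stwl), which binds DNA in female germ cells, was overexpressed (labelled Test StwlEY), which asks what raised Stwl does to transcript levels there. Neither the allele or RNAi that enriches the cells nor the promoter that drives Stwl is given in the sources used here, so what both groups share and whether their backgrounds match cannot be stated. Separate crosses are not stated for the replicates, and the spread between these 8 samples, which may be technical, is all that the p-values rest on.

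A cell duplicates its DNA once per cycle and then divides. Origin recognition proteins load the MCM helicase onto DNA in G1, and cyclin E with Cdk2, together with the E2F transcription factors, starts replication. Cyclins A, B and B3 then activate Cdk1 for mitosis, and the anaphase promoting complex destroys them when the chromosomes separate. In the fly ovary, germline stem cells and their daughters divide by mitosis, whereas nurse cells and older follicle cells copy their DNA without dividing and follicle cells finally amplify the eggshell genes, so many of these genes serve several cell types of the same tissue.

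Abundances are in TPM (transcript abundance per length, brought to 1 common sum per library), which allows levels to be compared between genes but keeps no sequencing depth. Between 8618 and 8941 genes reached 1 TPM in a library. The gene stwl was at 23.5 ± 1.31 TPM in controls and at 57.9 ± 9.65 TPM with overexpression (SD, n = 4 each), at 45.5, 55.5, 62.6 and 67.8 TPM in overexpression replicates 1 to 4, all above every control. Of 10 germline markers none was below 1 TPM in mean, bgcn was the 1 called lower in limma, and their summed level was 1382 to 1510 TPM in controls. It was 996, 1185, 1349 and 1447 TPM in overexpression replicates 1 to 4, of which replicate 4 lay within the control range. Markers of other cells were also present. The 9 late follicle cell genes of the eggshell summed to 112 to 802 TPM in controls and 1518 to 7031 TPM with overexpression, with 8 of 9 higher in limma, 11 muscle sheath markers to 2218 to 2999 and 3676 to 4526 TPM, with 9 of 11 higher, and 6 hemocyte markers to 73.6 to 116 and 142 to 209.5 TPM, with 5 of 6 higher. Of 10 markers of escort, cap and follicle cells, slbo and en were below 1 TPM in mean, none was called, and their sum was 456 to 506 TPM in controls and 477 to 569 TPM with overexpression. No marker was at 0 in every library. The part of these cell types in what follows was not tested. In bulk tissue, fewer cells of a type and less RNA per cell cannot be told apart.

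All 32 genes were well expressed. Their mean over the 8 libraries ran from 20.2 TPM for stg to 414 TPM for PCNA. They were also steady among controls. The coefficient of variation (SD as a percentage of the mean) of the 4 controls had a median of 4.47% over the 32 genes, against 5.75% over the 5169 tested genes in the same range of mean TPM. It was 0.633% for E2f2 and 8.77% for E2f1, the lowest and the highest. With Stwl overexpression the median was 9.5%, against 10.1% over genes of that range, and 28 of the 32 genes (87.5%) varied more between overexpression libraries than between controls, as did 78.7% of genes in that range.

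Most of the 32 genes were slightly lower with Stwl overexpression. The log2 fold change on the log2(TPM + 1) scale was below 0 for 25 of 32, between -0.22 and 0.10, with a median of -0.10, against 0.01 over all 8898 genes tested, of which 46% were below 0. In limma 1 of the 32 fell at a Benjamini-Hochberg adjusted p of 0.05 and none rose, against 8.38% of all genes called in either direction and 2.18% called lower, so the count of members called is near the background. The 4 values of each group did not overlap for 3 of the 32 genes (9.38%), RnrS, Cdk4 and Mcm7, all lower, against 5.64% of all tested genes lower and 10.3% higher. In the authors' deposited table, 14 of the 32 (43.8%) were lower at an adjusted p of 0.05 and none was higher, against 8.4% lower among all genes with an adjusted p there and 9.86% lower among those in the members' range of mean TPM. That threshold, which is also meant below where a gene is said to have passed in that table, was applied here to the adjusted p-values alone. No member was among the 548 genes that the authors' deposited table marks as Up or Down, none of which has an absolute log2 fold change under 0.6. Those genes make up 4.81% of that table. Among genes tested in the members' range of mean TPM the share is 2.01%, so finding no member is near the background.

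**Figure D1:**
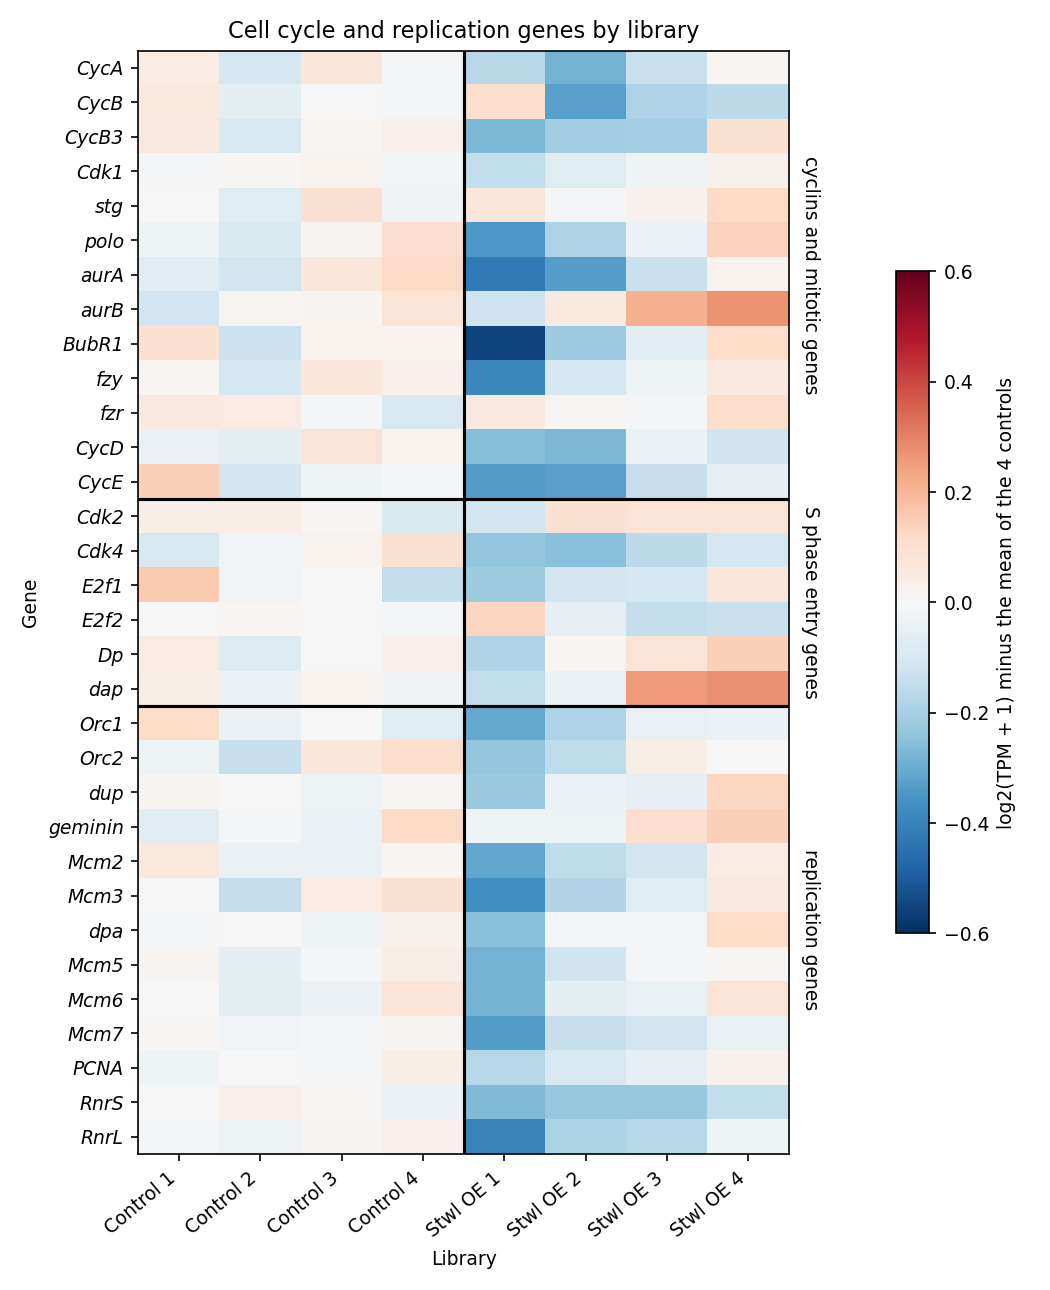
Each row is 1 of the 32 genes and each column 1 library; the colour gives log2(TPM + 1) minus the mean of the 4 controls, and black lines separate the groups and the 3 classes. Overexpression replicate 1 is the lowest (darkest blue) overexpression library in 24 of the 32 rows and replicate 4 the highest in 27. RnrS, Cdk4 and Mcm7 are among the rows with all 4 overexpression libraries below the mean of the controls.

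The 4 overexpression libraries differed among themselves more than the controls did. Overexpression replicate 1 was below every control for 27 of the 32 genes, replicate 2 for 22, replicate 3 for 14 and replicate 4 for 6. Over all tested genes in the members' range of TPM these shares were 58.9%, 31.4%, 14.1% and 10.3%. Replicate 4 was the highest overexpression library for 27 of the 32 genes (84.4%), against 62.4% of genes in that range. Summed over the 32 genes, abundance was 2880 to 3008 TPM in controls and 2526, 2701, 2844 and 3025 TPM in overexpression replicates 1 to 4. Replicate 4 thus lay just above the controls and the other 3 below them. The germline markers were lowest in replicate 1 and highest in replicate 4 as well. Divided by the summed germline markers, the 32 genes came to 1.96 to 2.08 in controls and to 2.54, 2.28, 2.11 and 2.09 in overexpression replicates 1 to 4, higher than every control. This ratio was chosen after the values were seen and has no test. Without overexpression replicate 1 the median log2 fold change of the 32 genes was -0.04, beside 0.06 over all genes tested. The distance between these medians was -0.11, against -0.12 with all libraries, so most of the shift was shared by all genes. Of the 25 genes below 0, 16 then came closer to 0 by over 1.5 times or turned, 7 of the 14 that pass in the authors' deposited table among them. The other 9 were CycA, CycB, CycB3, aurA, CycD, CycE, Cdk4, E2f2 and RnrS. The share of all genes that came closer to 0 in this way was not computed.

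Cyclins and mitotic genes and replication genes had similar fold changes. The median log2 fold change was -0.14 over the 13 cyclins and mitotic genes, of which 10 were below 0, and -0.10 over the 13 replication genes, of which 12 were below 0. The 6 genes of S phase entry had a median of -0.02, with 3 below 0. The G1 cyclins CycE and CycD, at -0.21 and -0.17, were counted with the cyclins and mitotic genes, and the class medians depend on that placement. Without overexpression replicate 1 the medians were -0.06 for cyclins and mitotic genes, -0.04 for replication genes and 0.01 for S phase entry. The mean log2(TPM + 1) of the cyclins and mitotic genes minus that of the replication genes was -0.74 ± 0.029 in controls and -0.73 ± 0.045 with overexpression (SD over 4 libraries), so the means differed by less than either SD. The members were chosen with results known, so these class values carry no test.

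**Figure D2:**
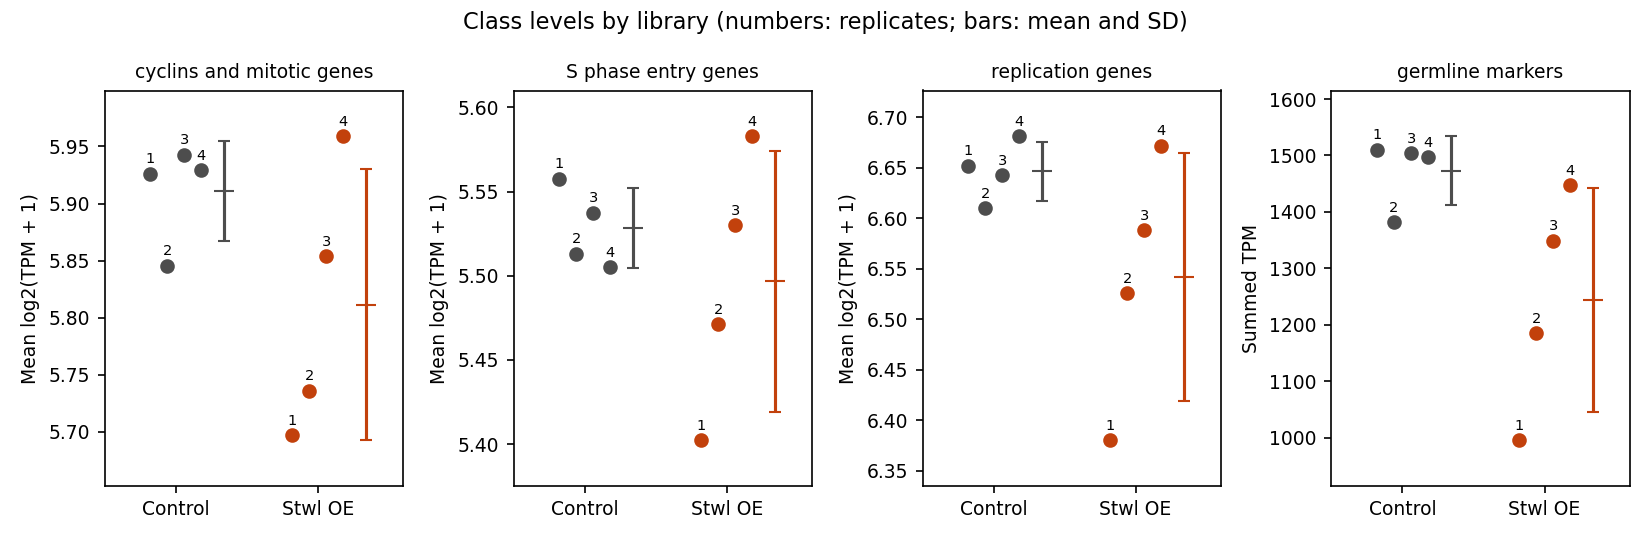
The first 3 panels give the mean log2(TPM + 1) of each class in each library, and the last the summed TPM of 10 germline markers; points are libraries, numbered by replicate, and bars are the mean and SD of 4. In every panel overexpression replicate 1 is the lowest library, and replicate 4 is the highest overexpression library and within or above the range of the controls.

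Among the mitotic cyclins, CycA, whose product acts in S phase and mitosis, was at 111, 101, 113 and 107 TPM in controls 1 to 4. In overexpression replicates 1 to 4 it was at 96, 88.3, 98.3 and 109 TPM. CycB3, a cyclin of anaphase, was at 29.7, 26.7, 28.8 and 29.1 TPM and at 23.5, 24.6, 24.7 and 30.4 TPM. For both genes 3 overexpression libraries were below every control and replicate 4 was not. Their log2 fold changes of -0.14 and -0.15 did not pass in limma (adjusted p 0.291 and 0.393), while both passed in the authors' deposited table (log2 fold changes -0.17 and -0.18, adjusted p 0.0323 and 0.0292). CycB, another mitotic cyclin, was at 107 to 115 TPM in controls and at 119, 88.3, 97.3 and 99.4 TPM with overexpression. Replicate 1, the lowest library for most of the 32 genes, was here the highest. The log2 fold change of CycB was -0.14 (adjusted p 0.403 in limma), and -0.22 without replicate 1 (adjusted p 0.0312 in limma). The kinase gene Cdk1 itself was at 162 to 166 TPM in controls and 148 to 167 TPM with overexpression, and stg, which encodes the Cdc25 phosphatase that activates Cdk1, at 18.8 to 21.2 and 19.7 to 21.7 TPM. Neither passed in limma (adjusted p 0.612 and 0.755), and the values of the groups overlapped.

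The aurora kinase genes had fold changes of opposite sign. The gene aurA, whose kinase acts at centrosomes, was at 56, 54.3, 61.6 and 63.6 TPM in controls and at 43.5, 46.6, 53.5 and 59.7 TPM with overexpression. Its log2 fold change of -0.22 with a standard error of 0.102 did not pass in limma (adjusted p 0.267) and passed in the authors' deposited table (log2 fold change -0.25, adjusted p 0.00103). The gene aurB, whose kinase acts in the chromosomal passenger complex, was at 79.9, 87.4, 87.7 and 91.9 TPM and at 79.3, 90.1, 101 and 105 TPM, with a log2 fold change of 0.10 that passed in neither test (adjusted p 0.586 in limma, 0.501 in the authors' deposited table). The most abundant gene of the class, polo, a kinase of spindle assembly and cytokinesis, ranged from 158 to 179.9 TPM in controls and from 132 to 185 TPM with overexpression. BubR1, of the spindle checkpoint, was at 33.3 to 38.9 TPM in controls and at 24.5, 31.2, 34.8 and 39.5 TPM with overexpression, the widest relative spread of the 32 genes, with a coefficient of variation of 19.4%. Both overlapped the controls.

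A pair of activators directs the anaphase promoting complex. The first, fzy, the Cdc20 of mitosis, was at 86.8 to 97.8 TPM in controls and at 71.3, 86.9, 91.8 and 97.1 TPM with overexpression, where only replicate 1 was below the controls. It passed in the authors' deposited table (log2 fold change -0.15, adjusted p 0.0252) and not in limma (log2 fold change -0.12, adjusted p 0.553), where it came to -0.025 without replicate 1. The second, fzr, the Cdh1 of G1 and of endocycles, was at 21.2 to 23.6 and 22.5 to 24.5 TPM, with a log2 fold change of 0.04 (adjusted p 0.803 in limma).

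The G1 cyclins had some of the larger negative values. CycE, which drives entry into S phase, was at 45.5, 38.1, 40.3 and 40.8 TPM in controls and at 32.4, 32.6, 37.3 and 39.6 TPM with overexpression, so 3 of 4 overexpression libraries lay below every control. Its log2 fold change was -0.21 (95% confidence interval -0.41 to -0.02) with an adjusted p of 0.191 in limma, and -0.25 with an adjusted p of 0.000992 in the authors' deposited table. CycD, which acts with Cdk4 in growth and G1, was at 32.8 to 36.1 TPM in controls and at 28.5, 28.2, 33.4 and 31.4 TPM with overexpression, again with 3 libraries below every control (-0.17 as log2 fold change, with adjusted p 0.217 in limma and 0.00553 in the authors' deposited table). Its partner Cdk4 (chromosome 2R, 16579470 to 16585448, plus strand) was lower in all 4 overexpression libraries, at 33.2, 32.9, 35.2 and 36.5 TPM, than in any control, at 36.7, 38.9, 39.9 and 41.9 TPM. That log2 fold change was -0.19 (standard error 0.0643) and missed the threshold in limma (adjusted p 0.122), and the authors' deposited table gives an adjusted p of 0.00757.

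The other genes of S phase entry did not pass in either test. Cdk2, the partner of cyclin E, was at 54.2 to 59.3 TPM in controls, at 53.3 TPM in overexpression replicate 1 and at 61 to 61.3 TPM in the other 3, with a log2 fold change of 0.04. E2f1, the activating E2F, was at 42.2 to 52.1 and 40.1 to 48.9 TPM, a log2 fold change of -0.09 (adjusted p 0.615 in limma). E2f2, the repressive E2F, was at 22.9 to 23.2 TPM in controls and at 25.4, 22.3, 20.8 and 20.9 TPM with overexpression (log2 fold change -0.05). With library weights the log2 fold change of E2f2 was -0.13 and passed (adjusted p 0.0294 in limma). Replicate 1 was the lowest of the overexpression libraries for E2f1 and the highest for E2f2. Dp, the dimer partner of both and the most abundant gene of the class, was at 95.9 to 105 and 89.2 to 112 TPM, with a log2 fold change of 0.01 that was just below 0 under 3 other scalings. The inhibitor of cyclin E and Cdk2, dap, was at 33.1 to 34.8 TPM in controls, at 30.5 and 33.1 TPM in overexpression replicates 1 and 2, and at 40.7 and 41.3 TPM in replicates 3 and 4 (log2 fold change 0.09, adjusted p 0.71 in limma). Its log2 fold change was 0.16 without overexpression replicate 1, 0.03 without replicate 3 and 0.02 without replicate 4, and with library weights it was 0.23 and passed (adjusted p 0.0121 in limma).

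**Figure D3:**
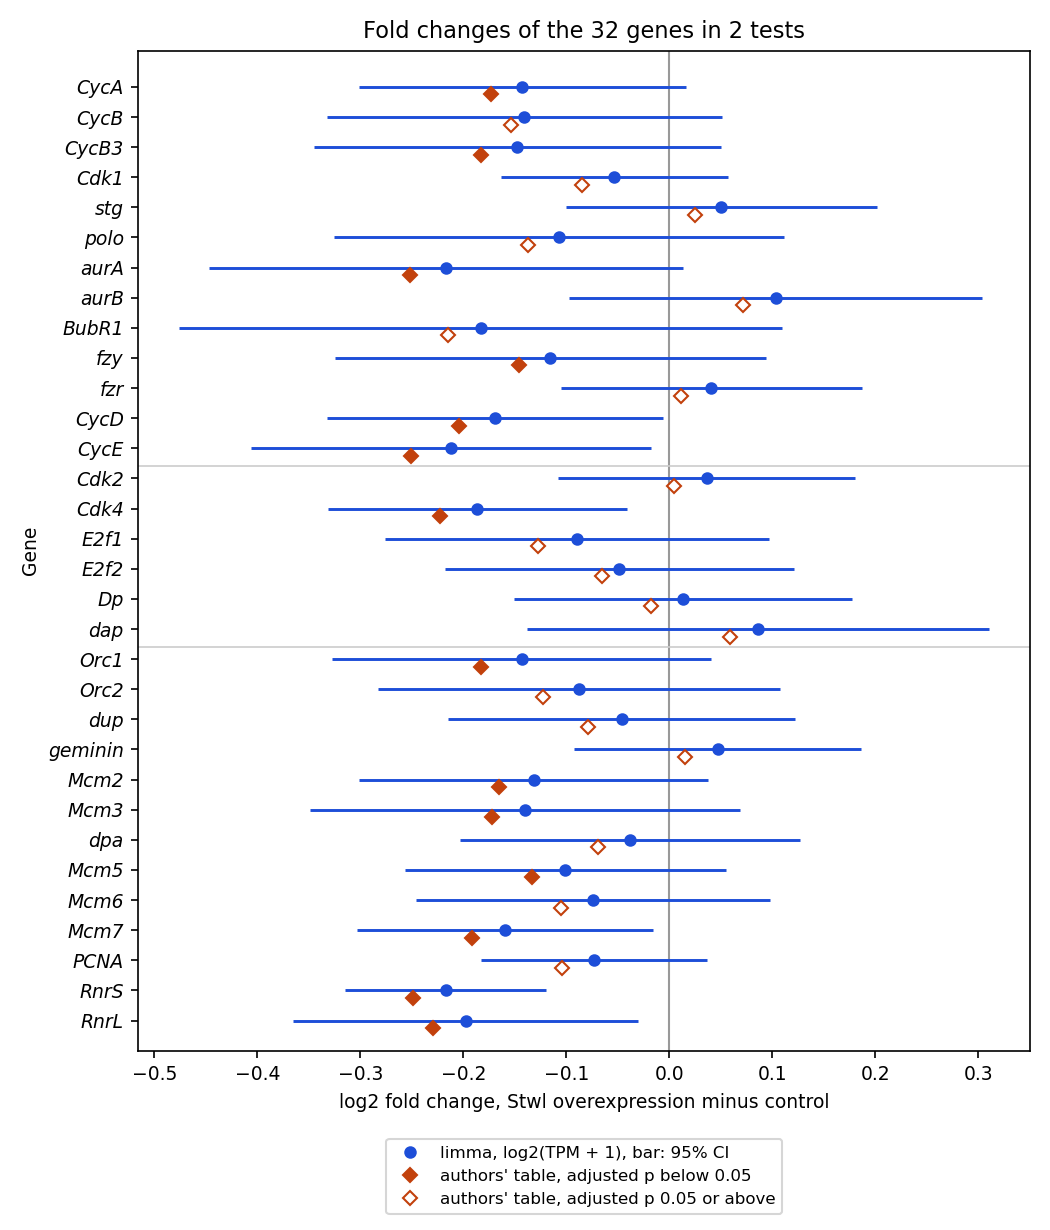
Log2 fold changes of the 32 genes, Stwl overexpression minus control, from limma on log2(TPM + 1) (circles, with 95% confidence intervals) and from the authors' deposited table (diamonds, filled where the adjusted p was below 0.05). The circles lie between -0.22 and 0.10, the diamonds between -0.25 and 0.07 and each slightly to the left of its circle, and the interval of RnrS is narrow, from -0.32 to -0.12.

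Ribonucleotide reductase makes the deoxyribonucleotides that replication uses, and its small subunit gene RnrS (chromosome 2R, 11983145 to 11985393, minus strand) was the 1 member that fell in limma. It was at 210.1, 215, 212 and 205 TPM in controls 1 to 4. With overexpression it was at 175, 179.6, 179.7 and 189.9 TPM. The groups did not overlap, and replicate 4 too was below every control. The mean went from 211 ± 4.22 to 181 ± 6.3 TPM (SD, n = 4 each), 14% lower, or -0.22 as log2 fold change (standard error 0.0434), at an adjusted p of 0.0149 in limma. The authors' deposited table has -0.25 and an adjusted p of 0.000997. The call is close to its threshold. Without control 2, control 3, overexpression 2 or overexpression 3 the adjusted p in limma was 0.0543, 0.0535, 0.055 or 0.0516, with log2 fold changes of -0.21 each. The large subunit gene RnrL was at 124 to 129 TPM in controls and at 95.4, 111, 112 and 124 TPM with overexpression, lower than every control in 3 of 4 libraries (log2 fold change -0.20, adjusted p 0.157 in limma, and 5.96e-07 in the authors' deposited table). Without replicate 1 the log2 fold change of RnrL was -0.13.

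The 6 subunits of the MCM helicase had a similar ratio of highest to lowest level in both groups. In controls they ranged from 79.8 TPM for Mcm2 to 143 TPM for Mcm7, with Mcm3, Mcm5, dpa (which encodes Mcm4) and Mcm6 at 104, 111, 113 and 132 TPM. The most abundant subunit exceeded the least by a factor of 1.8 ± 0.047 among controls and 1.76 ± 0.054 among overexpression libraries (SD, n = 4 each). Summed, they were at 688, 661, 678 and 705 TPM in controls, while overexpression replicates 1 to 4 had 552, 635, 656 and 702 TPM, so replicate 4 lay within the control range. All 6 had log2 fold changes below 0, from -0.16 for Mcm7 to -0.04 for dpa, and none passed in limma. Without overexpression replicate 1, they ran from -0.10 for Mcm7 to 0.03 for dpa, with Mcm2, Mcm3 and Mcm5 at -0.07, -0.06 and -0.04. Mcm7 (chromosome 3L, 8891596 to 8894310, plus strand) was at 142 to 145 TPM in controls and at 113, 129.9, 132 and 139 TPM with overexpression, with no overlap. Mcm2 was at 77.6 to 83.3 TPM in controls and at 64.1, 71.7, 74 and 82.4 TPM with overexpression, and Mcm3 at 94.2 to 111 TPM and at 80.6, 92.1, 99.2 and 108 TPM. Mcm5 was at 107 to 114 TPM and at 90.8, 102, 109.8 and 111 TPM. In each of these replicate 1 was the lowest library of all 8 and replicate 4 the highest of its group. Mcm6 was at 127 to 139 TPM in controls and at 108, 127, 128 and 139 TPM with overexpression, and dpa was at 95.2 TPM in replicate 1 and at 113 to 122 TPM in the other 3. In the authors' deposited table Mcm7, Mcm5, Mcm3 and Mcm2 passed, with log2 fold changes of -0.19, -0.13, -0.17 and -0.17 and adjusted p-values of 7.28e-05, 0.00212, 0.0037 and 0.00491, and Mcm6 and dpa did not (adjusted p 0.106 and 0.377).

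No gene of origin licensing passed in limma on the TPM as deposited. With quantile normalization Orc1 passed (log2 fold change -0.18, adjusted p 0.0473 in limma). Orc1, a subunit of the origin recognition complex, was at 24.1 to 27.6 TPM in controls and at 20.4, 22.2, 24.6 and 24.7 TPM with overexpression (log2 fold change -0.14, adjusted p 0.37 in limma, 0.0212 in the authors' deposited table, and a log2 fold change of -0.09 in limma without replicate 1). Orc2 was at 23.6 to 28.1 and 22 to 26.8 TPM (log2 fold change -0.09). The licensing factor dup, the fly Cdt1, was at 41.7 to 43 TPM in controls and at 36.3, 41.5, 41 and 46.5 TPM with overexpression, and its log2 fold change of -0.05 turned to 0.01 without overexpression replicate 1. Its inhibitor geminin was at 131 to 149 and 134 to 151 TPM, the 1 replication gene above 0 (log2 fold change 0.05, adjusted p 0.755 in limma). PCNA, the sliding clamp of DNA polymerases and the most abundant of the 32, was at 416, 425, 421 and 435 TPM in controls and at 376, 397, 409.6 and 431 TPM with overexpression (log2 fold change -0.07, adjusted p 0.454 in limma), with 3 overexpression libraries below every control.

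Ratios between partner genes within a library do not change when a library is rescaled by 1 factor. Of 7 such ratios, chosen with the values known and therefore given without a test, 2 did not overlap between the groups. The share of other gene pairs whose ratios do not overlap was not computed, so this count cannot be called particular to these genes. The ratio of aurA to aurB was 0.701, 0.621, 0.702 and 0.693 in controls and 0.548, 0.517, 0.533 and 0.571 with overexpression, a mean of 0.679 ± 0.0388 against 0.542 ± 0.0231 (SD, n = 4 each). The ratio of CycE to its inhibitor gene dap was 1.31, 1.15, 1.17 and 1.22 in controls and 1.06, 0.985, 0.917 and 0.96 with overexpression. In both ratios every overexpression library, replicate 4 included, was below every control. CycE to Cdk2 was 0.642 to 0.772 in controls and 0.532 to 0.65 with overexpression, with a narrow overlap. The ratios fzy to fzr (3.7 to 4.51 and 3.03 to 4.08), RnrS to RnrL (1.59 to 1.74 and 1.53 to 1.83), geminin to dup (3.03 to 3.47 and 3.23 to 3.71) and CycD to Cdk4 (0.83 to 0.907 and 0.857 to 0.95) overlapped widely.

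**Figure D4:**
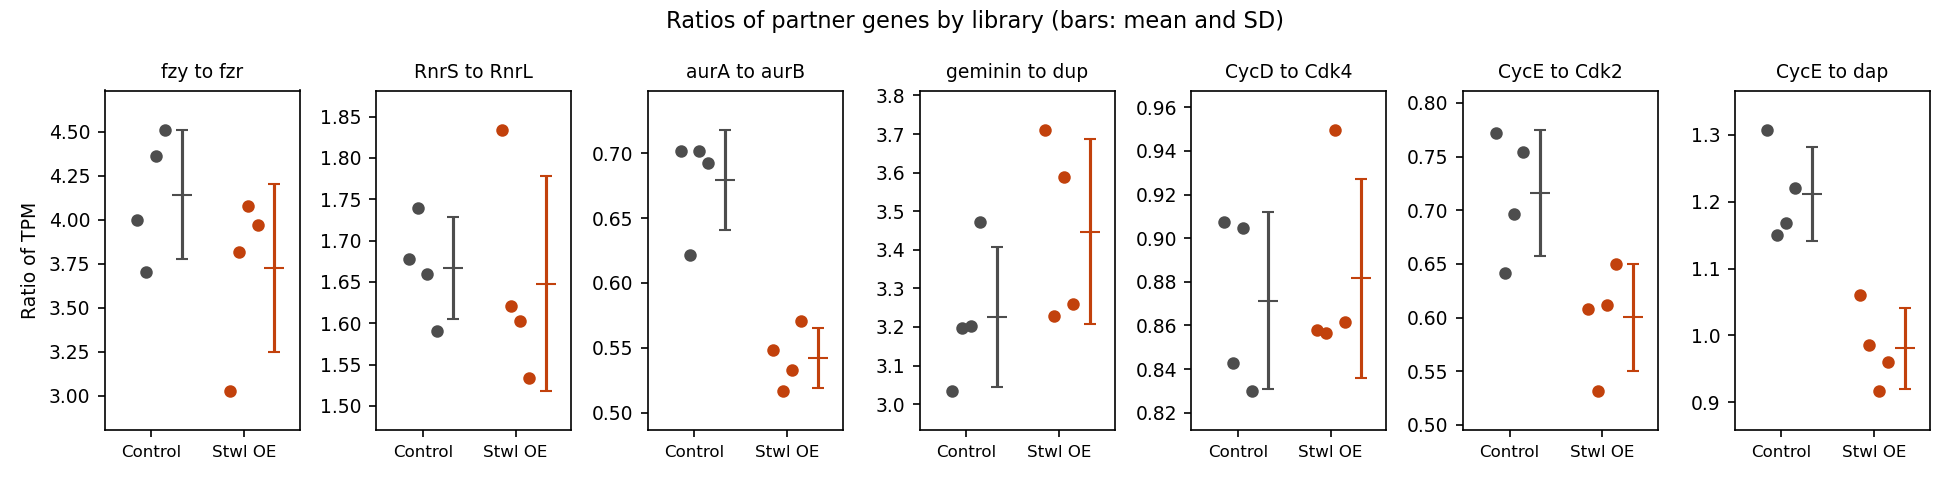
Ratios of TPM between 7 pairs of partner genes; points are libraries, and bars are the mean and SD of 4. The groups are apart for aurA to aurB, at 0.621 or above in controls and 0.571 or below with overexpression, and for CycE to dap, and overlap in the other 5 panels.

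How many of the 32 genes are called depends on the scaling between libraries and on the test. When libraries were scaled by the median of ratios in place of their TPM sum, 10 members were lower in limma, Cdk4, CycD, CycE, Mcm2, Mcm3, Mcm5, Mcm7, RnrL, RnrS and aurA, against 6.57% of all tested genes lower and 6.62% of those in the members' range of TPM. All 10 are among the 14 of the authors' deposited table, whose other 4 are CycA, CycB3, Orc1 and fzy. The median of the 32 log2 fold changes moved little, to -0.13 with this scaling and -0.14 in the authors' deposited table. Its distance from the median of all genes tested was between -0.13 and -0.11 under all 18 settings.

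**Figure D5:**
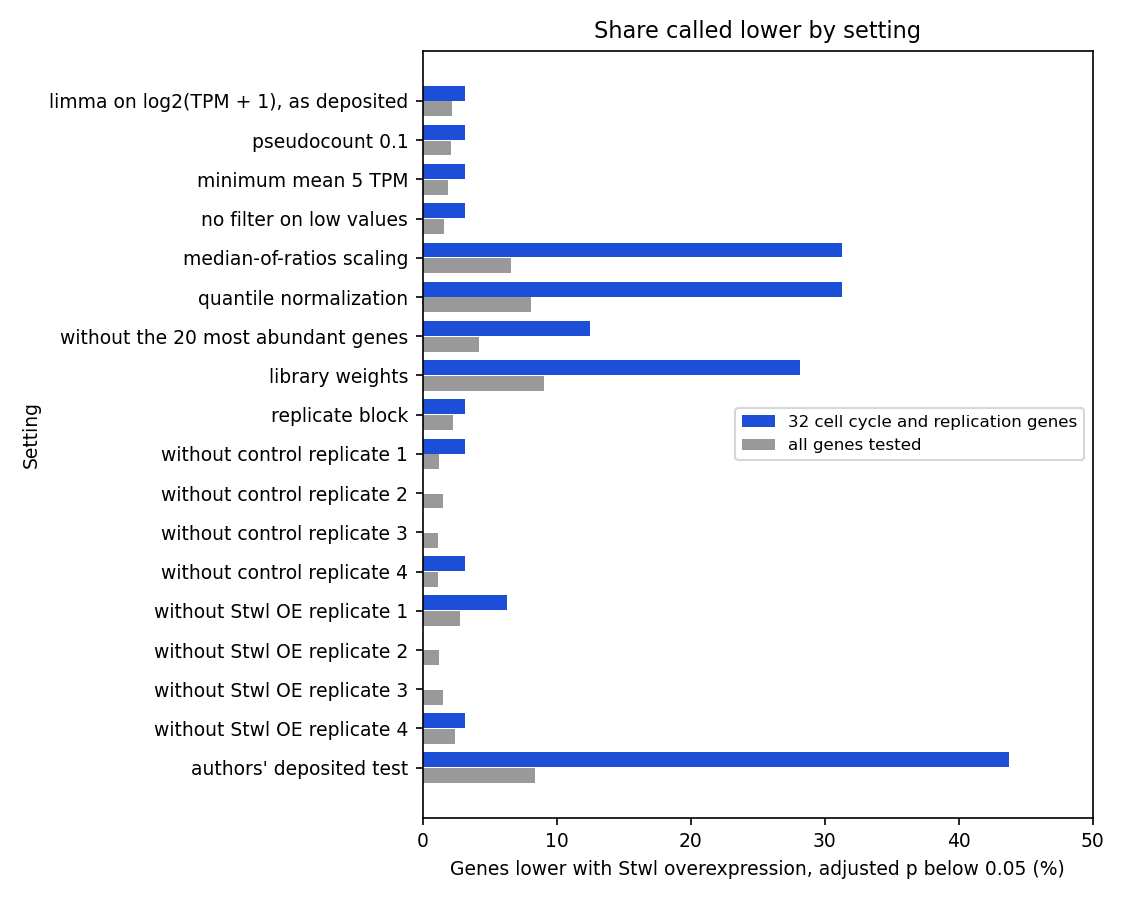
Share of the 32 genes (blue) and of all genes tested (grey) that were lower with Stwl overexpression at an adjusted p below 0.05, for limma as described, each alternative, each library left out and the authors' deposited test. The blue share is 3.13% as described, 31.3% with median-of-ratios scaling or quantile normalization, 43.8% in the authors' table and 0 when any of 4 libraries is left out.

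Of 111 further genes of the same pathways, listed by role, all were found and tested. In limma 1 fell and 1 rose (0.901% each), against 2.18% of all tested genes lower and 6.2% higher, so neither count is above the background. The median log2 fold change was -0.05. The gene that fell was asf1, a histone chaperone that acts at replication forks, which was at 143, 148, 155 and 155 TPM in controls and at 114, 118, 131 and 130.2 TPM with overexpression, a log2 fold change of -0.28 (adjusted p 0.0185 in limma). The gene that rose was Psf1, a subunit of the GINS complex of the replicative helicase, which was at 45.7, 48.7, 47.9 and 50.4 TPM and at 55.1, 61, 61.6 and 56.4 TPM, a log2 fold change of 0.27 (adjusted p 0.0222 in limma). Both were free of overlap between groups. Both also passed in the authors' deposited table with the same sign, asf1 at -0.32 (adjusted p 5.62e-09) and Psf1 at 0.25 (adjusted p 0.0364). In limma both calls ended when some single libraries were left out. For asf1 these were control 3, control 4 or overexpression 2 (log2 fold changes -0.27, -0.27 and -0.26, adjusted p in limma 0.0621, 0.062 and 0.0667). For Psf1 these were control 1, control 2, control 3, overexpression 2 or overexpression 3 (log2 fold changes 0.25 to 0.28, adjusted p in limma 0.0754, 0.0576, 0.0696, 0.0811 and 0.0764). Over the 111 genes, 9 (8.11%) had lower groups that did not overlap, near the 5.64% of all tested genes. All 9 were genes of the fork or of nucleotide supply. Another 3 had higher groups that did not overlap, against 10.3% of all tested genes. By role, the 21 genes of the replication fork (polymerases, clamp loaders, ligase and chaperones) had a median of -0.15, and 18 of them were below 0. Of these 21 genes, 7 (33.3%) had lower groups that did not overlap. The 11 kinetochore and chromosome passenger genes had a median of 0.02, with 4 below 0, and 2 of them, cid and Det, had higher groups that did not overlap, against 10.3% of all tested genes. Among the 4 genes of nucleotide supply 2 had lower groups that did not overlap, Ts and dnk, against 5.64% of all tested genes. Neither passed in limma (adjusted p 0.117 and 0.0549), and the list is short. At an adjusted p under 0.05 in the authors' deposited table, 1 of the 111 genes, Psf1, was higher, against 1113 of 10631 among all genes there. At the same threshold 29 of the 111 genes (26.1%) were lower, against 8.4% of all genes there. They included 12 of the 21 fork genes, 7 of 17 of the checkpoint and anaphase promoting complex, 2 of 4 of nucleotide supply, 2 of 15 of origins and helicase, 2 each of mitotic entry and of spindle and cytokinesis, 1 each of E2F control and of condensin and cohesin, and none of the 11 kinetochore genes. The other medians were -0.06 over 15 genes of origins and helicase, -0.11 over 4 of nucleotide supply, -0.07 over 17 of the checkpoint and anaphase promoting complex and over 9 of condensin and cohesin, and -0.01 over each of the lists of E2F control (12 genes), mitotic entry (10 genes) and spindle and cytokinesis (12 genes).

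The authors' deposited table also marks genes with a Stwl peak at a distance of 1 kb or less. It lists one at 30 of the 32 genes (93.8%), all but CycB and stg, against 73.7% of all its genes and 83.9% of those tested in the members' range of TPM. All 14 members with a lower value at an adjusted p under 0.05 in the same table have one, as do 16 of the other 18. None of the 32 is marked there as upregulated in either of the 2 other studies it names, against 21.2% of all its genes and 19.2% of those in the members' range of TPM. The origin of the peaks and the conditions of those studies are not given in the file.

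Some of these genes share transcribed sequence with a neighbour on the opposite strand, and the sources used here do not state whether quantification used strand. In the Ensembl annotation of BDGP 6, 81.7% of the exonic bases of Mcm7 overlap the antisense RNA asRNA:CR45871, which was not analysed here, 43.9% of those of Cdk2 overlap CG17267, and 19.9% of those of E2f2 overlap Mpp6. CG17267 was near 0 (mean 0.00767 TPM in controls and 0.0251 TPM with overexpression) and Mpp6 was at 17.5 and 18.2 TPM. Another 10 of the 32 genes overlap a neighbour by less than 10% of their exonic bases, 9.7% for aurA being the most.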

How the data were processed

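RNA of 8 ovary samples, 4 controls and 4 with Stwl overexpression, grouped by their titles, was analysed from 2 tables. The deposited TPM values are linear, although their headers say log2, since each library sums to 1000000. The authors' table, per the file headers, gives a signal (mean normalized value), log2 fold changes, standard errors, a test score and raw and adjusted p-values. The submitters' processing notes name BDGP 6, DESeq2 1.37.4 and Salmon 1.10.1, without their roles. TPM keeps no depth, so depth is unknown and no counting interval is given.

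The 8898 genes averaging 1 TPM or more were fitted as log2(TPM + 1) with limma 3.58.1 in R 4.3.3, with the group as only term and a variance trend. This scale understates changes of low genes. P-values were adjusted over all tested genes (Benjamini-Hochberg, threshold 0.05). The script was tested on simulated data. Count tests were not run here, because TPM are not counts. The members, lists, roles and tests were chosen with earlier results of these data known. Every member is named. Members called in either test, the 2 largest changes and the most abundant gene of each class, and called pathway genes were given in most detail. Alternatives were another pseudocount (0.1), minimum means of 5 TPM or none, 3 scalings, library weights, a replicate block, each library left out, and the authors' test. Symbols came from the authors' table or Ensembl release 115, and coordinates from the latter. Figures used matplotlib 3.10.9 in Python 3.11.15.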

Additional observations from a re-analysis of the deposited data

Results flagged for a closer look

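In 64 groups of 4 libraries (32 genes in 2 groups), 2 held a library far from the other 3 by Dixon's criterion, where chance flags about 1 in 20 groups. CycB3 was at 30.4 TPM in overexpression replicate 4, with the other overexpression libraries at 23.5 to 24.7 TPM. Cdk2 was at 53.3 TPM in overexpression replicate 1, with the other 3 at 61 to 61.3 TPM.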

How the results depend on the processing

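The median of the 32 genes stayed below 0 under every setting, and of the members only Dp, dup and dpa, all near 0, changed sign. Of the 3 other scalings in limma, the median of ratios gave 10 members, 16 pathway genes and 585 of all genes lower. Quantile normalization gave 10, 20 and 715. Leaving out the 20 genes of highest mean TPM over the 8 libraries gave 4, 8 and 379. The higher share of all calls was 74% as described and 58.4%, 48.1% and 63.4% under these. Library weights gave 9 members, 13 pathway genes and 804 of all genes lower, and 2 (aurB and dap), 10 and 2293 higher. Those 9 members were Cdk4, CycA, CycB, CycB3, E2f2, Mcm7, RnrL, RnrS and aurA. At an adjusted p under 0.05 in the authors' deposited table, 14 members, 29 pathway genes and 893 of all genes were lower and 1113 higher. Leaving out 1 library at a time gave 0 to 2 members, 0 to 2 pathway genes and 99 to 248 of all genes lower, and 0 to 3 pathway genes and 336 to 988 of all genes higher. The 0 members came without control 2, control 3, overexpression 2 or overexpression 3, and the 2 (CycB and RnrS) without overexpression 1, which also gave the 248 and the 988. Dp was at -0.011, -0.018 and -0.0051 under the 3 scalings, -0.018 in the authors' deposited table, and -0.031 to 0.077 with 1 library left out. For dup that range was -0.10 to 0.012 and for dpa -0.087 to 0.032, with 0.0055 for dpa under library weights. The adjusted p of RnrS in limma ran from 0.000416 to 0.055 over the settings. The cause of these changes was not tested. Same-numbered samples had correlations over genes of 0.13, -0.02, -0.13 and 0.14, within the -0.25 to 0.27 of unlike-numbered samples. No pairing by number was seen, though correlations among so few libraries cannot show that none exists. With the replicate block 1 member, 2 pathway genes and 202 of all genes were lower. Depth, unknown in TPM, sets no limit that can be stated.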
